A study of Mus musculus with 8 samples.

Results

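Synthesis of phosphatidylcholine and phosphatidylethanolamine was followed through the transcripts of 10 enzyme genes, Chka, Chkb, Etnk1, Pcyt1a, Pcyt1b, Pcyt2, Chpt1, Cept1, Selenoi and Pemt, out of 29442 genes in the count table. They were chosen by name as the enzymes around Chpt1, a gene selected on its difference between the same 8 libraries that are described here. The differences between groups are therefore given as a description. No p-value of a group difference is printed for any of the 10, and counts of them past a p threshold stand only beside the share of all genes.

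In the Kennedy pathway, choline and ethanolamine are first phosphorylated by kinases. Cytidylyl transferases then convert the phosphorylated head groups to CDP-choline and CDP-ethanolamine, and phosphotransferases join these to diacylglycerol in the endoplasmic reticulum and Golgi. The products, phosphatidylcholine and phosphatidylethanolamine, are the most abundant phospholipids of neuronal and myelin membranes, and phosphatidylethanolamine can also be methylated to phosphatidylcholine by Pemt, an enzyme best known from liver.

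The study compared female C57BL/6 J mice, 6 to 8 weeks old, that received DHEA at 30 mg/kg/day (n = 4) or its vehicle sesame oil (n = 4) by subcutaneous injection in the abdomen for 21 days. DHEA, dehydroepiandrosterone, is an adrenal steroid from which androgens are formed. The mice went through behavioral tests before dissection, and RNA from the ventral hippocampus of each was sequenced. The libraries labelled DHEA (HipR3, HipR4, HipR7 and HipR11) held 35748416 to 38038361 counts, and the vehicle libraries, labelled sesame oil (HipR5, HipR10, HipR16 and HipR9), held 31483772 to 35418297. Directions below follow the deposited treatment labels, which run opposite to the direction in the study's own list of differentially expressed genes, so the groups are named by label throughout. The study reports that qRT-PCR in additional hippocampal samples went the way of its list, with Pomc raised by DHEA. By label, Pomc had a log2 fold change of -1.16 (SE 0.48) here. Whether the labels or the list are exchanged was not tested. Neither batch nor pairing is named in the labels.

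The tissue label was checked against marker genes. All 9 hippocampal markers were detected in the 8 libraries, among them Prox1 of dentate granule cells (112 to 145 CPM) and Neurod6 of pyramidal neurons (194 to 256 CPM), and so were the 4 ventral markers Dcn, Trhr, Grp and Gpc3. CPM are counts scaled to a total of 1000000 per library after normalization by the trimmed mean of M-values (TMM). Choroid plexus genes, which come from tissue next to the hippocampus, varied from 92.0 summed CPM in HipR4 to 4437 in HipR3, and the groups overlapped.

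HipR3 and HipR4 stood apart from the other 6 libraries. On the first principal component of 16813 genes, which held 33.4% of the variance, they scored 21.8 and 35.6, and the other 6 lay between -12.7 and -3.62. The libraries also differed by group in composition. The correlation of log2 CPM, relative to the mean of the libraries, with GC content was between -0.11 and -0.0045 in the DHEA-labelled libraries and between 0.056 and 0.14 in the vehicle libraries. The 13 protein genes of the mitochondrial genome held 7.29% to 9.34% of the counts in the former and 6.37% to 7.23% in the latter. Values of the 10 genes are given with these libraries and, where it matters, without HipR3 and HipR4.

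All 10 genes had at least 1 count, the mean count was 10 or more for 9 of them, and Chkb was at 0 or 1 count. Of the 10, 1 had groups that did not overlap, namely Chpt1, which was higher in the libraries labelled DHEA, while 5.04% of the 27612 genes tested had groups without overlap (2.42% higher and 2.62% lower). In edgeR's quasi-likelihood test an unadjusted p under 0.05 was reached by 2 of the 10 (Chpt1 higher, Pcyt2 lower), against 9.31% of all genes (4.82% higher and 4.49% lower). After Benjamini-Hochberg adjustment 0 of the 10 and 0.00% of all genes were called by edgeR, with 2571 genes at an unadjusted p under 0.05, and DESeq2 called 153 genes after adjustment, Chpt1 alone of the 10 among them. The study's thresholds, a raw p under 0.05 and a change of 2-fold or more either way, were met by 0 of the 10 and by 1.60% of all genes. As the genes were chosen with this contrast known, nothing is read from these counts.

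**Figure D1:**
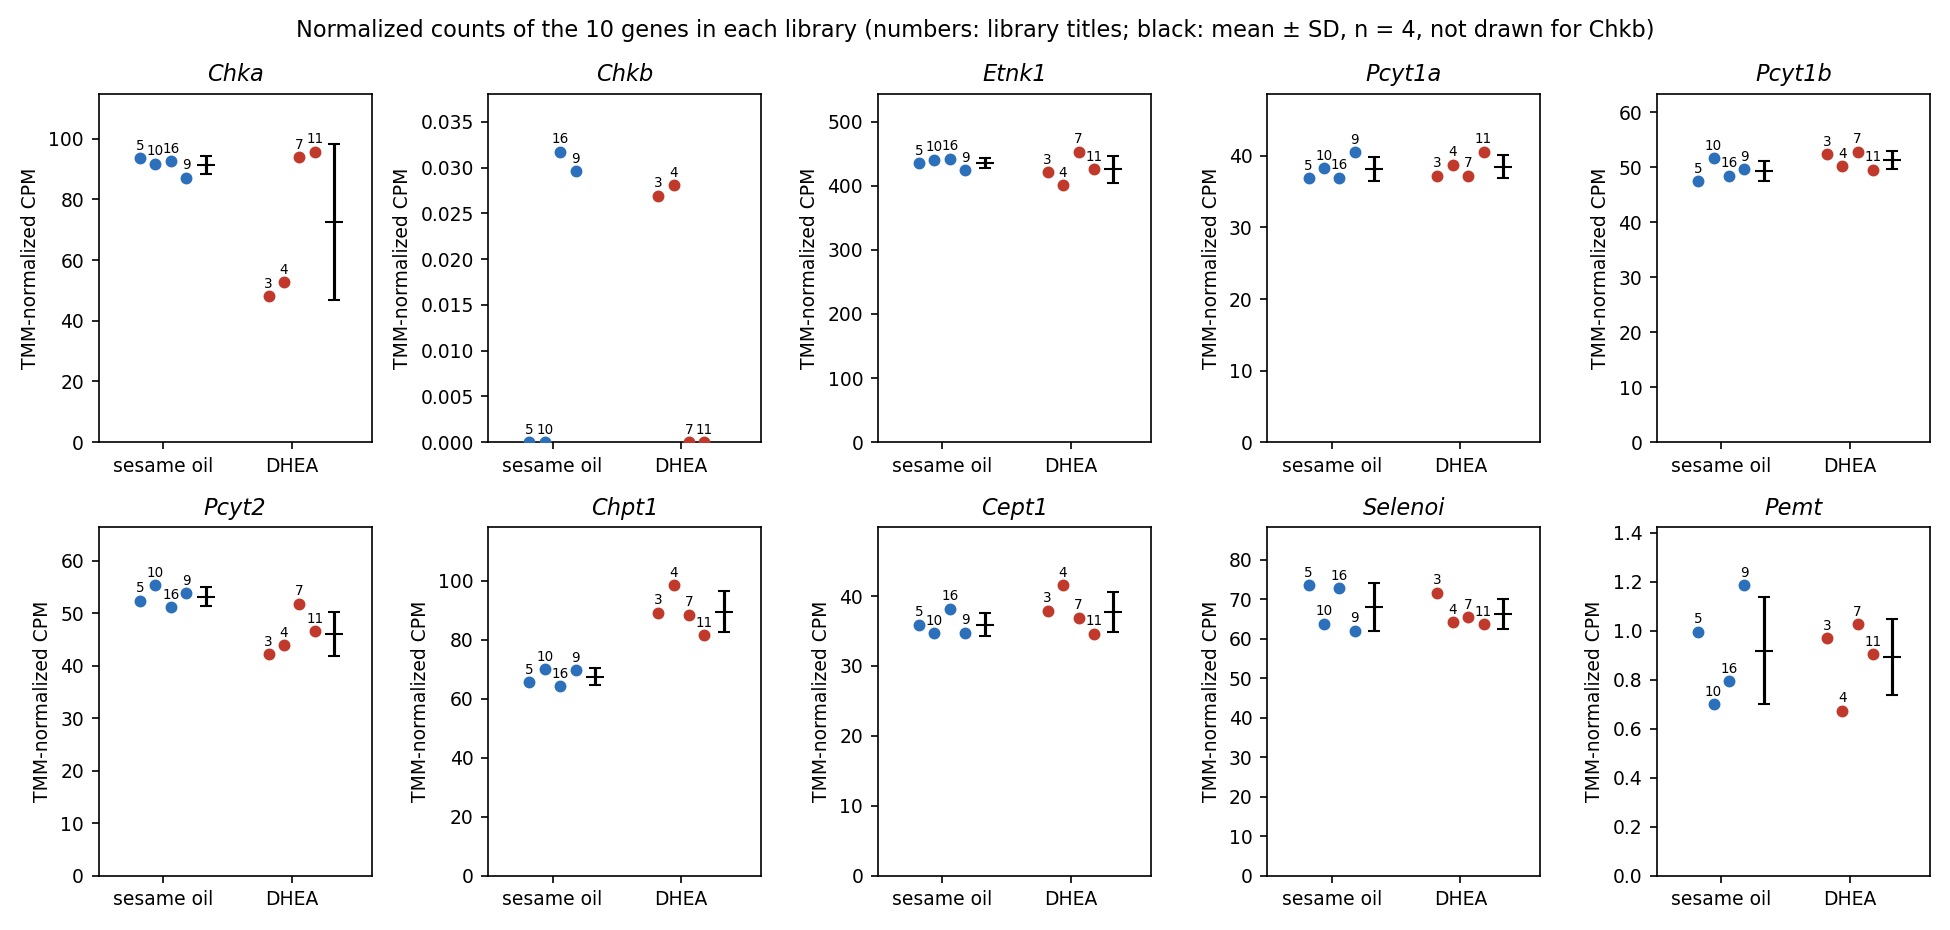
TMM-normalized CPM (y axis, from 0) of each of the 10 genes in the 4 libraries labelled sesame oil (blue) and the 4 labelled DHEA (red), with the number of each library's title above its point; black bars are the mean and SD of a group. Chpt1 separates the groups with a gap of 11.7 CPM, Chka is low in HipR3 and HipR4 alone, and Chkb has at most 1 count in any library.

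Chpt1, cholinephosphotransferase 1, completes phosphatidylcholine synthesis from CDP-choline and diacylglycerol, and lies on the minus strand at chr10:88452745-88504073 (GRCm38, GENCODE vM21). The 250 bases before its RefSeq start are shown because it was the one member whose groups were apart, and those of Chka because that gene varied most among the libraries at usable depth. The strand is the gene's own, the build is GRCm38.p6, the sequences are from RefSeq, and capitals mark GC boxes (GGGCGG on either strand, so also CCGCCC) and CCAAT boxes (CCAAT). The Chpt1 window spans chr10:88503971-88504220 on the minus strand, with the GENCODE gene model reaching into its last part, and the Chka window spans chr19:3851523-3851772 on the plus strand.
Chpt1 promoter: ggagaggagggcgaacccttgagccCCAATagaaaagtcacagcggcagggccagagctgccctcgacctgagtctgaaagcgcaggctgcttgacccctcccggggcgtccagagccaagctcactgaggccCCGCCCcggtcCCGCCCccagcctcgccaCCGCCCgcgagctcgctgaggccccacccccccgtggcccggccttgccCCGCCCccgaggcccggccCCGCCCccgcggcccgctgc
Chka promoter: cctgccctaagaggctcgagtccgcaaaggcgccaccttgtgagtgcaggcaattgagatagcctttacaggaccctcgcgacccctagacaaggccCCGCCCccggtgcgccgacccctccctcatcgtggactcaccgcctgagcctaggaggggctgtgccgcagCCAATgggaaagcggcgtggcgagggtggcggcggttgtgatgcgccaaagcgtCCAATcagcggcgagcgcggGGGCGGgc
The Chpt1 window held 5 GC boxes, at 117, 106, 88, 39 and 20 bases before the RefSeq start, and 1 CCAAT box, with a GC content of 75.6%. The GC boxes at 88, 39 and 20 lie within the GENCODE gene model, so they are upstream of the RefSeq start only. The Chka window held 2 GC boxes and 2 CCAAT boxes, with a GC content of 68%. Of 32851 windows of the same length, 32.7% held a GC box and 33.8% a CCAAT box. A match of letters is a description and not a site. Windows were found for 9 of the 10 genes (15 windows), all but Pcyt2. GC boxes were present in 9 of the 15 windows, from 7 genes (all but Pcyt1b and Pemt of those with a window). CCAAT boxes were present in 7 of the 15, from 6 genes (Chpt1, Pcyt1b, Chka, Chkb, Selenoi and Pemt). The shares of all windows compare with the counts of windows, not of genes. TATAAA was present for Chkb alone (12.4% of all windows), and CACGTG, the E-box, for 0 of the 9 genes (6.02% of all windows). Because DHEA is an androgen precursor, the androgen receptor palindrome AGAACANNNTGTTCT was also searched on both strands. It occurred in 3 of the 32851 windows (0.00913%) and in none of the 15, and its single arm AGAACA, in 16.1% of all windows, matched once, 75 bases before a start of Cept1.

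Among the kinases, Chka split the libraries labelled DHEA into 2 low and 2 high ones. It encodes choline kinase alpha, which phosphorylates choline and so commits it to the pathway. In the libraries labelled DHEA it was 48.1 CPM in HipR3, 52.7 in HipR4, 94.0 in HipR7 and 95.8 in HipR11. In the vehicle libraries it was 93.6 in HipR5, 91.9 in HipR10, 92.7 in HipR16 and 87.2 in HipR9. The 2 libraries that stood apart on the first principal component were thus low, and the other 2 labelled DHEA lay slightly above the vehicle range. The fitted log2 fold change was -0.33 (SE 0.16) over all 8 libraries and 0.05 without HipR3 and HipR4, so its sign rests on those 2. Leaving out single libraries gave -0.18 without HipR3, -0.21 without HipR4, -0.48 without HipR7 and -0.49 without HipR11. Since the RNA came from whole tissue, fewer cells of a type and less RNA per cell cannot be told apart, for this and every other gene here.

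Chkb, choline kinase beta, the isoform known from muscle disease, had 1 count in HipR3, HipR4, HipR16 and HipR9 and 0 in the other 4 libraries. With 1 count worth 0.0269 to 0.0317 CPM, no difference could be read at this depth. In GENCODE vM21, 57.6% of its 3061 exonic bases also lie in exons of Gm44502 on the same strand or C730034F03Rik on the opposite strand. Gm44502 itself had 1 to 16 counts, and Cpt1b, the gene beside it, 0 to 5. How the counting treated reads on shared exons is not given in the sources used here, so the near absence of Chkb counts is not evidence on Chkb RNA.

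Etnk1, ethanolamine kinase 1, opens the phosphatidylethanolamine branch and was the most abundant of the 10 per length. It was 421, 401, 453 and 426 CPM in HipR3, HipR4, HipR7 and HipR11, and 436, 441, 442 and 425 in HipR5, HipR10, HipR16 and HipR9. The groups overlapped, the log2 fold change was -0.03 (SE 0.06, 95% interval -0.16 to 0.09), and the spread over the 8 libraries was 3.71% of the mean. HipR3 and HipR4 held the lowest values here too, by far less than for Chka.

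The cytidylyl transferases of the choline branch were steady. Pcyt1a, the widely expressed CTP:phosphocholine cytidylyl transferase alpha and the regulated step of phosphatidylcholine synthesis, ranged from 37.2 to 40.6 CPM in the DHEA-labelled libraries and from 36.9 to 40.5 in the vehicle libraries. Its log2 fold change was 0.01 (SE 0.07, 95% interval -0.14 to 0.16). Pcyt1b, the beta isoform, known from brain, ranged from 49.5 to 52.8 CPM and from 47.5 to 51.6 CPM, with a log2 fold change of 0.06 (SE 0.06, 95% interval -0.08 to 0.19). The spread of these 2 genes over the 8 libraries, 3.99% and 3.75% of the mean, was among the smallest of the 10.

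Pcyt2, the ethanolamine counterpart, forms CDP-ethanolamine and was lower in 3 of the 4 libraries labelled DHEA than in every vehicle library. It was 42.2 CPM in HipR3, 43.9 in HipR4, 51.8 in HipR7 and 46.5 in HipR11. In the vehicle libraries it was 52.4 in HipR5, 55.3 in HipR10, 51.1 in HipR16 and 53.8 in HipR9. HipR7 slightly exceeded HipR16, so the groups overlapped by this single pair. The means were 46.1 ± 4.22 and 53.2 ± 1.83 CPM (SD, n = 4 each), and the log2 fold change was -0.21 (SE 0.07, 95% interval -0.36 to -0.05). Without HipR3 and HipR4 it was -0.12, in the same direction but no longer at the unadjusted p under 0.05 counted above.

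Of the phosphotransferases, Chpt1 had the largest difference. It was 89.2 CPM in HipR3, 98.5 in HipR4, 88.5 in HipR7 and 81.5 in HipR11. In the vehicle libraries it was 65.6 in HipR5, 69.9 in HipR10, 64.3 in HipR16 and 69.8 in HipR9. The lowest library labelled DHEA was thus 11.7 CPM above the highest vehicle library. The means were 89.4 ± 6.96 and 67.4 ± 2.85 CPM (SD, n = 4 each), a log2 fold change of 0.41 (SE 0.07, 95% interval 0.26 to 0.55), or 32.7% higher. Among the 16813 genes whose mean count was 10 or more, the median log2 fold change was 0.01 and its median size 0.12. The value was 0.33 without HipR3 and HipR4, 0.35 to 0.45 when single libraries were left out, and 0.31 after each library's trend with GC content was removed. In GENCODE vM21, 7.93% of the exonic bases of Chpt1 are shared with Sycp3 on the opposite strand.

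Cept1, choline/ethanolamine phosphotransferase 1, which uses both CDP-choline and CDP-ethanolamine, did not separate the groups. It was 37.9, 41.6, 36.9 and 34.6 CPM in HipR3, HipR4, HipR7 and HipR11, and 35.9, 34.7, 38.2 and 34.8 in HipR5, HipR10, HipR16 and HipR9. The log2 fold change was 0.07 (SE 0.08, 95% interval -0.09 to 0.23). Of its exonic bases, 24.9% are shared with Dennd2d or Dram2 on the opposite strand.

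Selenoi, the selenoprotein that is the ethanolamine-specific phosphotransferase, also overlapped between groups. It ranged from 63.6 to 71.7 CPM in the DHEA-labelled libraries and from 62.1 to 73.6 in the vehicle libraries, with a log2 fold change of -0.04 (SE 0.07, 95% interval -0.19 to 0.11). Pemt, which methylates phosphatidylethanolamine, was near the lower limit of the libraries at 24 to 40 counts. It was 0.673 to 1.03 CPM in the DHEA-labelled libraries and 0.701 to 1.19 in the vehicle libraries, with a log2 fold change of -0.04 (SE 0.33, 95% interval -0.72 to 0.64). At this depth a difference the size of that of Chpt1 was not detectable for Pemt.

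**Figure D2:**
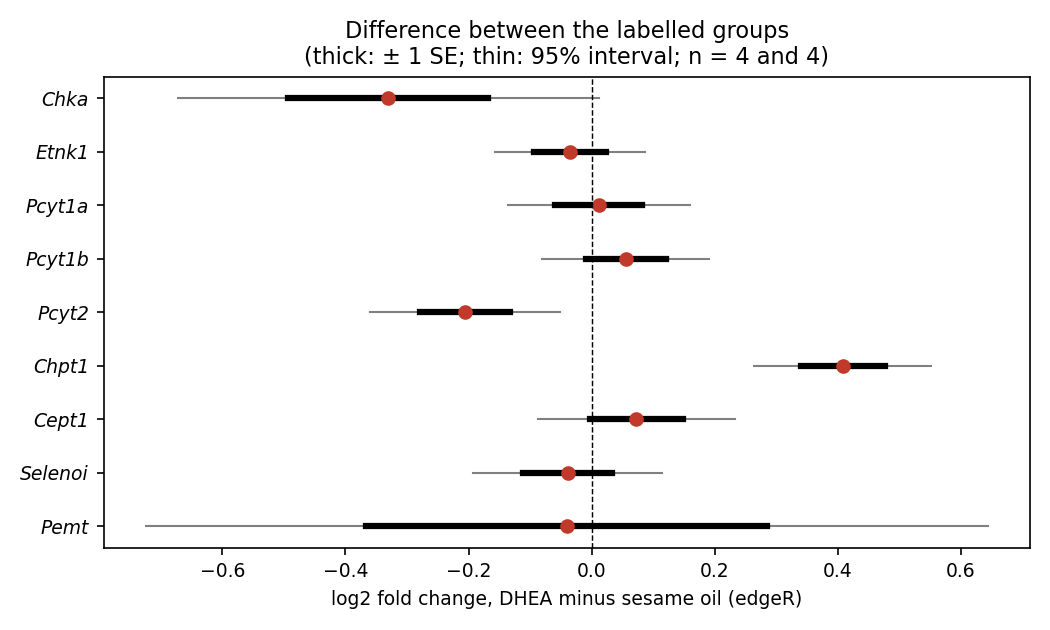
Log2 fold change between the libraries labelled DHEA and sesame oil (x axis, edgeR, n = 4 each) for 9 genes, with ± 1 SE as thick bars and 95% intervals as thin bars; Chkb is not drawn. Chpt1, chosen on this difference, has the highest value (0.41), Chka (-0.33) and Pcyt2 (-0.21) the lowest, and the intervals are widest for Pemt and Chka.

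Ratios within a library set members of the pathway against each other without library scaling. FPKM, the count divided by gene length and library total, was used, and because each gene has a single length the comparison of a ratio between libraries does not depend on that length. Ratios that contain Chpt1 carry the difference on which it was chosen, so their separation is no further result. Chpt1 relative to Cept1 was 3.87 in HipR3, 3.89 in HipR4, 3.94 in HipR7 and 3.87 in HipR11, and 3.0 in HipR5, 3.31 in HipR10, 2.77 in HipR16 and 3.30 in HipR9. The 4 libraries labelled DHEA thus lay between 3.87 and 3.94, above every vehicle library. Pcyt2 relative to Chpt1 was 1.65, 1.56, 2.05 and 1.99 in the libraries labelled DHEA in the same order, and 2.79, 2.77, 2.78 and 2.70 in the vehicle libraries. This ratio also had no overlap, and HipR3 and HipR4 were the lowest. The isoform ratio of Pcyt1b to Pcyt1a stayed between 1.16 and 1.35 in the 8 libraries with overlapping groups. Etnk1 relative to Chka was 10.1 and 8.79 in HipR3 and HipR4 and 5.14 to 5.63 in the other 6 libraries. Of all pairs among the 9 genes, Pcyt2 and Chka had the highest correlation (Pearson r = 0.83 over the 8 libraries, 0.78 after the group means were removed), in which the low values of both in HipR3 and HipR4 take part. Pcyt1a and Selenoi varied in opposite directions (r = -0.81 over the 8 libraries, also -0.81 after the group means were removed). These correlations are descriptions over libraries that share their scaling.

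Myelin genes were higher in the same group of libraries as Chpt1. All 9 markers of myelinating oligodendrocytes (Mbp, Mobp, Mog, Mag, Cnp, Mal, Cldn11, Ermn and Opalin) were higher in the libraries labelled DHEA in edgeR's quasi-likelihood test at an unadjusted p under 0.05, with a median log2 fold change of 0.38, none passed after adjustment over all genes, and none was at 0. Their summed level was 4563, 5855, 4517 and 5087 CPM in HipR3, HipR4, HipR7 and HipR11, and 3783, 3732, 3155 and 4483 in HipR5, HipR10, HipR16 and HipR9. Mbp, the most abundant, was 2913, 3823, 2832 and 3171 CPM against 2445, 2393, 2010 and 2846. Chpt1 and the summed markers, both read from the same libraries, correlated over the 8 libraries (Pearson r = 0.85, and 0.58 after the group means were removed). The former value carries the group difference on which Chpt1 was chosen and is no further result. HipR9 and HipR7 had similar myelin sums (4483 and 4517 CPM), and Chpt1 was 69.8 CPM in the former and 88.5 in the latter. They belong to different groups, and Chpt1 was chosen on its group difference, so nothing is read from this pair. The part of myelin in the Chpt1 difference was not tested.

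**Figure D3:**
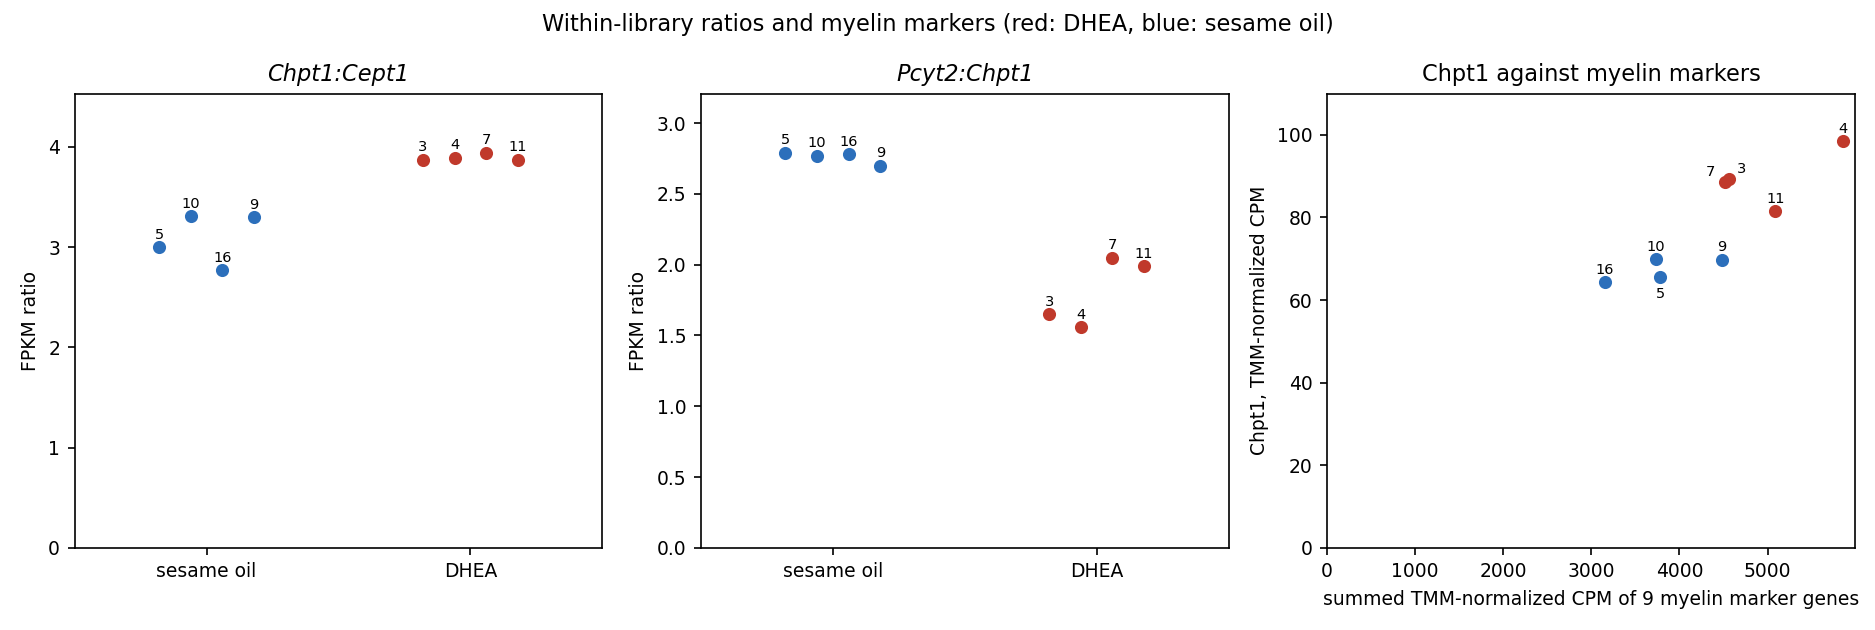
FPKM ratio of Chpt1 to Cept1 and of Pcyt2 to Chpt1 (left and middle, y axes from 0) in libraries labelled sesame oil (blue) and DHEA (red), and Chpt1 CPM against the summed CPM of 9 myelin genes (right); numbers are library titles. Both ratios contain Chpt1, the gene chosen on its group difference, and do not overlap between groups. Chpt1 in the right panel carries the same difference.

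Other cell types were read in the same way, as a description from lists chosen with earlier results known. Of all genes, 4.82% were called higher and 4.49% lower. In edgeR's test at an unadjusted p under 0.05, 4 of 6 astrocyte markers were higher (median log2 fold change 0.17, summed CPM 5334 to 6385 in the libraries labelled DHEA against 4636 to 5425, Slc1a2 the most abundant). The same held for 2 of 5 microglial markers (0.15, 205 to 277 against 190 to 221, Csf1r), 3 of 5 endothelial markers (0.30, 238 to 289 against 224 to 241, Flt1) and 2 of 5 markers of oligodendrocyte precursors (0.14, 223 to 241 against 187 to 213, Olig1). Flt1 itself was not called and had a log2 fold change below 0 (-0.06, SE 0.06). Of 7 neuronal markers 1, Rbfox3, was lower and the rest were not called (-0.03, 8675 to 9250 against 8824 to 9304, Camk2a). Of 6 choroid plexus markers 0 were called (Ttr the most abundant), and of 7 tested anterior pituitary markers 3 were lower (1.85 to 3.37 against 3.53 to 30.3, Prl), with Fshb at 0 in the 8 libraries. Of the hippocampal markers 2 of 9 were higher, Spink8 and Bok (median -0.01, 1153 to 1177 against 1089 to 1338, Zbtb20), and of the 4 ventral markers 0 were called (-0.08, 77.9 to 115 against 82.3 to 102, Dcn). None of the markers of the other lists was at 0 in every library. The part of these cell types in the values of the 10 genes was not tested.

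Levels of the genes relative to each other were read as FPKM over the 8 libraries (mean ± SD, n = 8). Etnk1 was highest at 50.6 ± 2.53, followed by Pcyt2 at 25.8 ± 2.87 and Chpt1 at 11.6 ± 1.74. Selenoi (9.87 ± 0.687), Pcyt1b (9.19 ± 0.337), Chka (8.36 ± 2.10) and Pcyt1a (7.38 ± 0.352) formed a middle group, with Cept1 at 3.32 ± 0.165 and Pemt at 0.690 ± 0.140 below it. The 0 or 1 count of Chkb gives it no place in this order, for the reasons above. Among the 27612 genes with counts these levels ran from the 96.3th percentile for Etnk1 to the 51.9th for Pemt. Neighbours in this order were compared within libraries by an exact two-sided sign-flip permutation test (9 pairs, Benjamini-Hochberg adjusted, smallest possible unadjusted p 0.00781), and the pair of Pemt and Chkb, although among the 9, is not read. Etnk1 exceeded Pcyt2, Pcyt2 exceeded Chpt1, Pcyt1a exceeded Cept1 and Cept1 exceeded Pemt in 8 of 8 libraries (adjusted p = 0.0141 each, exact permutation test). The remaining neighbours did not differ beyond their spread: Chpt1 and Selenoi (adjusted p = 0.0804), Selenoi and Pcyt1b (0.0703), Pcyt1b and Chka (0.445) and Chka and Pcyt1a (0.431), all by the exact permutation test. Within these pairs the order varied between libraries. Chpt1 exceeded Selenoi in 4 of the 4 libraries labelled DHEA and in 2 of the 4 vehicle libraries. This split carries the group difference on which Chpt1 was chosen. Chka exceeded Pcyt1a in all libraries but HipR3 and HipR4.

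This order depended on the gene length. The length behind the deposited FPKM was 11067 bases for Cept1 and 1926 for Pcyt2, while the GENCODE vM21 models hold 3116 and 4346 exonic bases. For Selenoi the lengths were 6806 and 13135. With the GENCODE lengths Cept1 came to 11.8 ± 0.587 and Pcyt2 to 11.4 ± 1.27 on the same scale, next below Etnk1 at 30.4 ± 1.52. Cept1 then no longer ranked below Pcyt1a (5.17 ± 0.247), and Pcyt2 and Chpt1 (9.40 ± 1.40) no longer differed beyond their spread (adjusted p = 0.117, exact permutation test). Selenoi came to 5.12 ± 0.356, next below Pcyt1a and not different from it beyond the spread (adjusted p = 0.844, exact permutation test). Pcyt1b (9.38 ± 0.344) then exceeded Chka (6.84 ± 1.72) in 8 of 8 libraries (adjusted p = 0.0176, exact permutation test), which the deposited length did not show. Etnk1 was highest, and Pemt lowest of the genes other than Chkb, under both lengths.

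**Figure D4:**
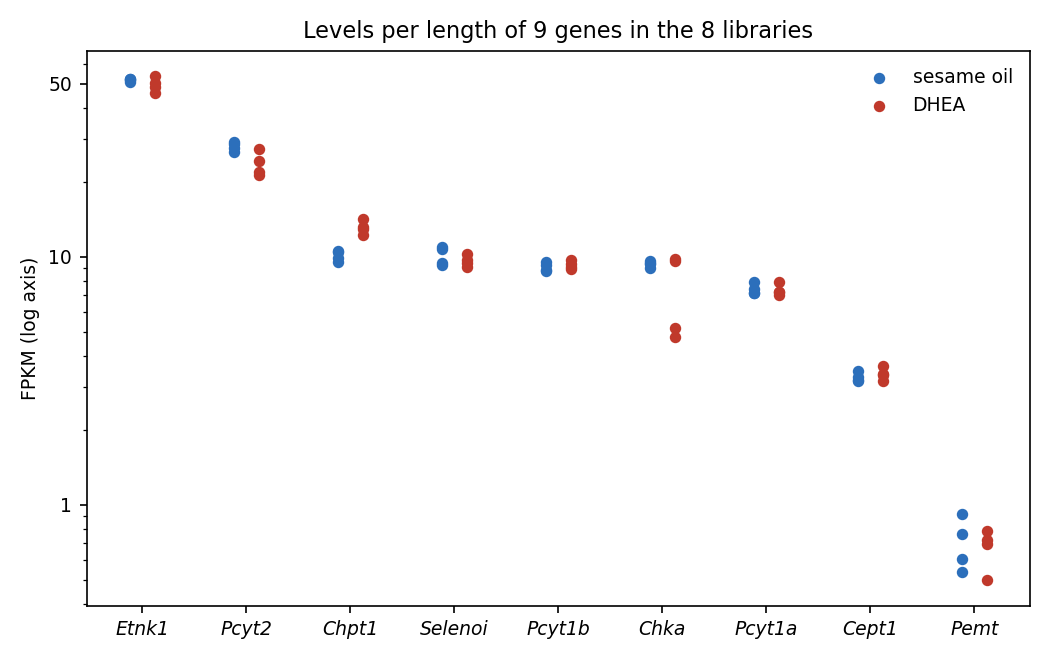
FPKM (log y axis) of 9 genes in each of the 8 libraries, ordered by mean, with sesame oil in blue and DHEA in red; Chkb, with 0 or 1 count, is not drawn. Etnk1 leads at a mean of 50.6 and Pemt is lowest at 0.690, with Selenoi, Pcyt1b, Chka and Pcyt1a close together.

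The genes whose pattern over the 8 libraries was most like that of Chpt1 were 4933431E20Rik (Pearson r = 0.98), Yes1 (0.97), Smim10l1 (0.97), Trp53inp2 (0.97) and Fam174a (0.96), among 12779 genes whose mean count was 100 or more. The measure was log2(CPM + 0.5). After the group means were removed r was 0.92, 0.76, 0.87, 0.78 and 0.84. They are listed by likeness in these libraries alone. The values over the 8 libraries carry the group difference on which Chpt1 was chosen, so genes that differ between the groups are favoured.

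The pathways around the 10 genes were followed through 75 further genes, of which 74 were tested and 68 reached a mean count of 10. At an unadjusted p under 0.05 in edgeR's test 7 of the 74 were called (9.46%), 5 of them higher in the libraries labelled DHEA and 2 lower, close to the 9.31% of all genes, and 0 were called after adjustment, as with every gene tested. Their median log2 fold change was 0.05. The calls fell on uptake of choline and ethanolamine (2 of 10), other choline and ethanolamine steps (3 of 13), ether lipid synthesis (1 of 5) and sphingomyelin metabolism (1 of 6). The phosphatidylserine route (3 genes), the supply of diacylglycerol and phosphatidic acid (19), the remodelling acyltransferases (8) and the phospholipases (10) had 0 calls.

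Upstream of the pathway, Slc44a1, a choline transporter of the plasma membrane and mitochondria, had the smallest p of the 74. It was 115, 127, 112 and 122 CPM in HipR3, HipR4, HipR7 and HipR11, and 103, 101, 90.2 and 102 in HipR5, HipR10, HipR16 and HipR9. The groups did not overlap, as in 5.04% of all genes tested, and the log2 fold change was 0.27 (SE 0.07, adjusted p = 0.240 in edgeR's test, Benjamini-Hochberg). Flvcr1, a transporter of choline and ethanolamine, followed the split seen for Chka instead. It was 13.1 and 12.7 CPM in HipR3 and HipR4, 22.03 and 20.6 in HipR7 and HipR11 and 18.03 to 20.7 in the vehicle libraries (log2 fold change -0.17, SE 0.15). Without HipR3 and HipR4 the log2 fold change was 0.14, and it was -0.06 without either of them alone, -0.31 without HipR7 and -0.27 without HipR11. Slc44a5, another member of the choline transporter-like family, was 43.0 to 50.8 CPM against 46.3 to 64.0 (log2 fold change -0.19, SE 0.09, adjusted p = 0.531 in edgeR's test), and its unadjusted call was lost in 10 of 17 alternative settings. Without HipR5, the highest library at 64.0 CPM, its log2 fold change was -0.10, and the call was lost as well without HipR4, HipR7 or HipR16 alone.

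Downstream and beside the pathway, Sgms1, the sphingomyelin synthase that consumes phosphatidylcholine, was 45.4 to 54.5 CPM in the libraries labelled DHEA against 41.4 to 43.5 (log2 fold change 0.21, SE 0.07, adjusted p = 0.341 in edgeR's test). Agps, which makes the ether bond of plasmalogen precursors in peroxisomes, was 50.8 to 59.0 CPM against 43.8 to 50.3 (0.21, SE 0.07, adjusted p = 0.372 in edgeR's test). Both had groups without overlap, as had 5.04% of all genes tested. Both lost the unadjusted call without HipR3 and HipR4, at 0.13 and 0.12, as did Agps without HipR16 (0.16). Ache, acetylcholinesterase, was 23.3 to 32.96 CPM against 31.4 to 36.4 (log2 fold change -0.25, SE 0.10, adjusted p = 0.452 in edgeR's test), and -0.08 without HipR3 and HipR4, its unadjusted call being lost there and without HipR3, HipR4 or HipR9 alone (-0.20, -0.18 and -0.20). The remaining calls, named after their values were seen, were Aldh7a1, an aldehyde dehydrogenase that can oxidize betaine aldehyde (log2 fold change 0.15), and Etnppl, the astrocyte enzyme that breaks down phosphoethanolamine (0.88). Etnppl rested on HipR11 at 52.0 CPM, the other 7 libraries lying between 9.34 and 17.8.

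Other genes set for description gave no call at the unadjusted threshold. The phosphatidylserine synthases Ptdss1 and Ptdss2 and the decarboxylase Pisd, which form phosphatidylethanolamine by the mitochondrial route, had log2 fold changes of -0.02 (SE 0.07), -0.16 (SE 0.08) and -0.05 (SE 0.07). Etnk2, the other ethanolamine kinase, had 32 to 107 counts per library (log2 fold change 0.12, SE 0.33). Its direction rested on single libraries, at 0.59 without HipR16, -0.11 without HipR10, and just below 0 without HipR5 or HipR7. Lpin1, a phosphatidate phosphatase that yields diacylglycerol, was 0.03 (SE 0.08), and Gpcpd1, which releases choline from glycerophosphocholine, was 0.09 (SE 0.08). Chat, choline acetyltransferase of cholinergic neurons, had 0 to 9 counts, so no difference was detectable at this depth.

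**Figure D5:**
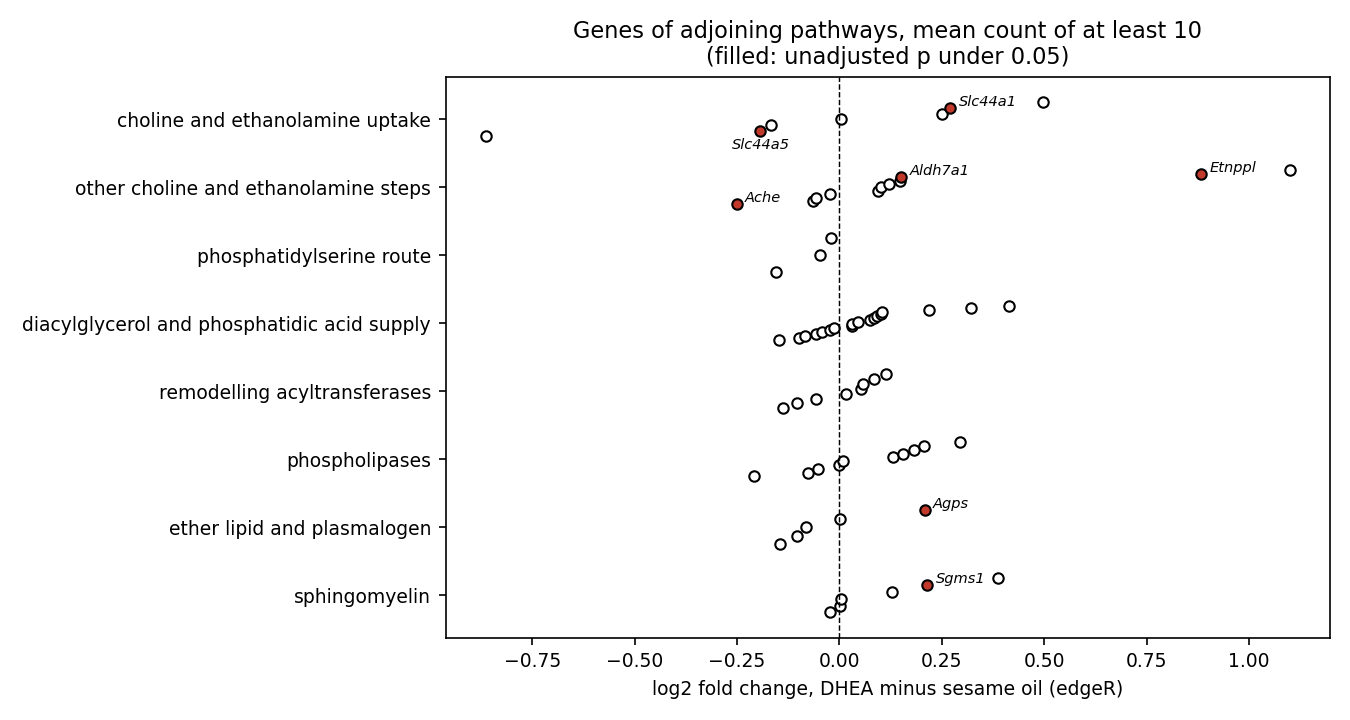
Log2 fold change (x axis, edgeR, libraries labelled DHEA minus sesame oil) of the 68 genes of adjoining pathways with a mean count of at least 10, by list; filled points have an unadjusted p under 0.05 and are named. The 7 filled points fall in 4 of the 8 lists, and the lists for the phosphatidylserine route, diacylglycerol supply, remodelling and phospholipases have none.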

How the data were processed

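RNA of the ventral hippocampus of 4 female mice labelled DHEA and 4 labelled sesame oil was sequenced as paired-end reads from poly(A) libraries. The authors discarded low-quality reads, aligned those left with HISAT2 and counted them with HTSeq, and deposited raw counts per gene. The submitters' processing notes also name fastp and the build GRCm39, while tool versions, strand setting and annotation are not given in the sources used here. The authors also deposited FPKM, which equals the count divided by the library total and 1 length per gene (within 0.1% in 25234 of 25234 genes), so it holds no further measurement. All columns of both tables mapped to a sample.

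The 10 genes, the gene lists and the marker lists were chosen with earlier results of these data known. Counts were normalized by TMM and fitted with edgeR 4.0.16 (quasi-likelihood, prior count 0.125, no covariate) in R 4.3.3 on 27612 genes, those of the 29442 with any count, and p-values were Benjamini-Hochberg adjusted over all of them. The SE is the log2 fold change divided by the square root of F. The genes named were the 10 members, the 3 genes of the adjoining lists with the smallest p in each direction (mean count of at least 10), Etnk2, Slc44a1, Flvcr1, Chat, Ptdss1, Ptdss2, Pisd, Lpin1 and Gpcpd1, the 5 genes most like Chpt1, and the markers. Levels between genes were compared as log2(FPKM + 0.1) within libraries. As alternatives, RLE normalization, DESeq2 1.42.0, a minimum of 10 counts, filterByExpr, robust moderation, limma 3.58.1 on log2(FPKM + 1) and log2(FPKM + 0.1), removal of each library's GC trend (lowess, span 0.3, GC from GENCODE vM21 transcripts for 15594 of 16813 genes, 92.7%) and leaving out each library were run. Of the marker lists, 2 genes are not reported here and were left out of the counts and sums. Leaving out HipR3 and HipR4 together, and the GENCODE vM21 exonic length, were chosen after the data were seen.

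Gene models (GENCODE vM21) and promoter sequences (RefSeq) are on GRCm38, whereas the counts were made on GRCm39, so they were joined by gene symbol only. Library totals of 31483772 to 38038361 counts make 1 count worth 0.0269 to 0.0317 CPM. No pair of libraries within a group differed by as little as counting noise (chi-square per degree of freedom 7.82 to 57.3). The labels name no litter or culture, and each library was taken as a separate mouse as the study's methods describe. Those methods also state that controls in the behavioral tests were littermates, but which libraries share a litter is not given. The fits were tested before use on simulated data, with 100 genes changed by a log2 fold change of 0.5 in size and 100 by 1. At an adjusted p under 0.05 edgeR recovered 58% and 99% of these, and it also called 56 unchanged genes. DESeq2 recovered 65% and 98% with 40 unchanged genes called. Limma on log2(FPKM + 1) recovered 21% and 79% with 5 unchanged genes called. A change near the size of that of Chpt1 could thus be missed, and calls after adjustment included unchanged genes. Behavior, electrophysiology, qRT-PCR, protein and ChIP data were not analysed here.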

Additional observations from a re-analysis of the deposited data

Results flagged for a closer look

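The 10 genes, the other genes whose levels or likeness to Chpt1 are given, the marker sums, the ratios and the library measures were screened for a library far from the other 3 of its group, by Dixon's ratio (its distance from the next library, as a share of the spread from lowest to highest) at the 95% critical value. Of 118 groups examined 6 exceeded it, where chance, at about 1 in 20, would give about 5.9. In the libraries labelled sesame oil, Slc44a1 was 90.2 CPM in HipR16 against 101 to 103 in the other 3 (ratio 0.869), which widens its difference from the libraries labelled DHEA. In the same group, the summed anterior pituitary markers were 30.3 CPM in HipR10 against 3.53 to 6.91 (ratio 0.874). Also among the libraries labelled sesame oil, HipR9 scored -3.62 on the first principal component against -10.04 to -9.95 (ratio 0.985), Yes1 was 16.9 CPM in HipR9 against 15.5 to 15.7 (ratio 0.850), and Cpt1b was 0.140 CPM in HipR10 against 0.0296 to 0.0317 (ratio 0.981), the latter being 5 counts or fewer. In the libraries labelled DHEA, Etnppl was 52.0 CPM in HipR11 against 12.8 to 16.7 (ratio 0.902). None of the 10 phospholipid genes was set apart in this way, and with 4 libraries a split into 2 and 2, as for Chka, cannot be found by this measure.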

How the results depend on the processing

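Chpt1 was higher in the libraries labelled DHEA under all 17 alternative settings (log2 fold change 0.31 to 0.45), Pcyt2 lower under all 17 (-0.27 to -0.12) and Pcyt1b above 0 under all 17 (0.03 to 0.08). Chka was negative in 16 of 17, the exception being 0.05 without HipR3 and HipR4, and -0.49 to -0.18 when single libraries were left out. Cept1, Pcyt1a, Etnk1, Selenoi and Pemt were close to 0 and changed sign in 1 to 7 settings, and Chkb cannot be judged at 0 or 1 count. With the GC trend removed Chpt1 moved to 0.31 and Etnk1 to -0.10.

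At an adjusted p under 0.05, edgeR called 0 genes, against 153 with DESeq2, 4 with robust moderation, 1 without HipR3 and HipR4, and 0 to 93 when single libraries were left out, the highest being without HipR7 and the next 12 without HipR11. Chpt1 was among the genes called by DESeq2, with robust moderation, and without HipR7 or HipR11, which is no support, since it was chosen on this difference. The 442 genes past the study's thresholds became 164 with DESeq2, 284 with at least 10 counts, 62 with filterByExpr, 1 and 48 with limma on log2(FPKM + 1) and log2(FPKM + 0.1), 253 with the GC trend removed and 361 to 512 without single libraries. Genes of adjoining pathways at an unadjusted p under 0.05 were 7, with 5 under DESeq2 and 10 without HipR3 and HipR4. Without single libraries they were 6 to 11, the highest again without HipR7. Neighbouring pairs of levels that differed were 5, with 6 without HipR10 and 4 with the GENCODE vM21 length. Each count includes the pair of Pemt and Chkb, which is not read. The GENCODE vM21 length changed 4 places of the order, while the vehicle libraries alone changed 2, Chka passing Pcyt1b. Among adjoining genes named, the unadjusted call was lost in 10 settings for Slc44a5, 5 for Ache, 2 for Agps and 1 for Sgms1, and gained in 4 for Ptdss2, 1 for Flvcr1 and 1 for Gpcpd1. The cause of these changes was not tested. No paired analysis was possible because the labels give the groups no shared numbers and do not say which mice were littermates. With 4 libraries per group, and mean counts of 31.6 for Pemt and 0.5 for Chkb, these genes carry the widest errors.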

Other observations

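In the supply of diacylglycerol, to which the phosphotransferases join the head groups, and of its precursor phosphatidic acid, the acyltransferases Agpat3 (207 to 240 CPM over the 8 libraries) and Agpat1 (76.2 to 92.4 CPM) and the glycerol-phosphate acyltransferase Gpat4 (70.3 to 81.5 CPM) had log2 fold changes of 0.08 (SE 0.06), -0.08 (SE 0.06) and -0.01 (SE 0.07), none called at an unadjusted p under 0.05. These 3 were named after their values were seen. Gnpat, which begins ether lipid synthesis in peroxisomes and acts beside Agps, was 49.4 to 53.5 CPM in the DHEA-labelled libraries against 54.5 to 56.8 in the vehicle libraries, groups that did not overlap, but its log2 fold change of -0.10 (SE 0.06) was not called at the unadjusted threshold, and Agps had a difference of the opposite sign (0.21, SE 0.07). The choline transporter of cholinergic terminals, Slc5a7, had a mean of 30.5 counts and was 0.931 to 1.16 CPM against 0.561 to 0.920, also without overlap and not called (0.50, SE 0.32). Gnpat and Slc5a7 were likewise named after their values were seen, and 5.04% of all genes tested had groups without overlap.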
